A study of Rattus norvegicus with 4 samples.

Results

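Most fibroblast growth factors are secreted ligands that bind receptor tyrosine kinases of the Fgfr family. The genes described here are 6 ligands (Fgf1, Fgf2, Fgf5, Fgf7, Fgf9 and Fgf10) and 3 receptors (Fgfr1, Fgfr2 and Fgfr3). These genes, and the gene lists used below, were chosen with earlier results of these data known. Their counts are therefore set beside the shares of all names as description, not as a test. Probes were taken by name. Each non-control probe counted whose gene name, without an ending for predicted or mapped genes, equals 1 of these 9 symbols. This gave 12 probes of 41012 on the array, and 9 gene names of 35658. All 12 probes passed the filter on dim signals, as did 36749 probes and 31897 gene names in all.

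The study compared cultured olfactory ensheathing cells, glia that surround bundles of olfactory axons, from 2 sources. One group was cells from the olfactory mucosa and the other was cells from the olfactory bulb, both taken from male Fischer rats and grown by the same culture protocol, with no other treatment and no age in the labels. Each of 4 arrays carried 1 biological replicate as a pair, with mucosa cDNA in the Cy5 channel and bulb cDNA in the Cy3 channel. The RNA was amplified by PCR before labelling, and the labels do not say how many animals gave a culture. The dyes were never swapped, so the tissue of origin and the dye cannot be told apart in any ratio below. In bulk cultures, fewer cells of a type and less RNA per cell cannot be told apart either.

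In this pathway a ligand, held by heparan sulfate on the cell surface, pairs 2 receptor molecules and starts relay through docking proteins to the Ras and MAP kinase cascade. Sprouty, Spred and dual-specificity phosphatase proteins then dampen the signal. Fgf7, known as keratinocyte growth factor, and Fgf10 are typically made by mesenchymal cells and act on epithelia through a splice form of Fgfr2, while Fgf1, Fgf2 and Fgf9 are known in nervous tissue and act on glia and neurons.

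The probes are 60 bases long and the ratio of each is read from 1 short stretch of the transcript, so 5 of them are shown here as the sites where these genes were measured. They are Fgf7 as the ligand of highest ratio, the Fgf2 probe that differs from a second probe of the same gene and, for comparison, members with 1 probe or smaller ratios. Capitals mark the letters TANAANA, which 3 ligand probes share on the strand given, and which 9.37% of all 41012 probes hold on that strand (16.7% on either strand, and 4 of the 12 member probes). The 3 ligand probes that hold it are the 3 ligand probes shown, and their number beside these shares was not tested.
Fgf7: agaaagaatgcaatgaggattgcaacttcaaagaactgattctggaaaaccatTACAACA
Fgf2, the probe spotted 10 times: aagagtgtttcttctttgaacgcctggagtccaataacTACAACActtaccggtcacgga
Fgf5: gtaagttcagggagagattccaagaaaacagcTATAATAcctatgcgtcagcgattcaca
Fgfr1, the brighter probe: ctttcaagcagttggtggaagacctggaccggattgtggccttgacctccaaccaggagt
Fgfr3: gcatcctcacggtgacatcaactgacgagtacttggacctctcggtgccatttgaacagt

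Across the 66 pairs of the 12 member probes, the longest identical run was 8 bases. In the rn4 build of the file headers, Fgf7 lies on the plus strand at chr3:113516353-113517401, an interval 989 bases longer than the probe. The intervals of Fgfr3, at chr14:82684088-82684322, and of the brighter Fgfr1 probe, at chr16:70870147-70870312, both on the minus strand, were likewise longer than the probe, by 175 and 106 bases. The other 9 probes covered exactly 60 bases of genome. Exon, intron and UTR annotation of rn4 was not used here.

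Fgf7 had the largest difference of the 9 genes and was higher in mucosa cells. Its log2 ratio of mucosa over bulb was 3.40, 2.70, 3.76 and 3.36 on the 4 arrays, so every array was well above 0. The mean was 3.31 ± 0.44 (SD, n = 4), a 9.89-fold difference (adjusted p = 0.00235). The log2 signal of the probe, across the 4 arrays, lay between 12.64 and 12.97 in the mucosa channel and between 8.91 and 9.94 in the bulb channel, without overlap. These signals were set to a common scale between arrays and serve to compare 1 probe across samples, not 1 gene with another. The call held with each array left out in turn (adjusted p from 0.0118 to 0.0255), and was lost when the variance was not moderated across genes (adjusted p = 0.0699).

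**Figure D1:**
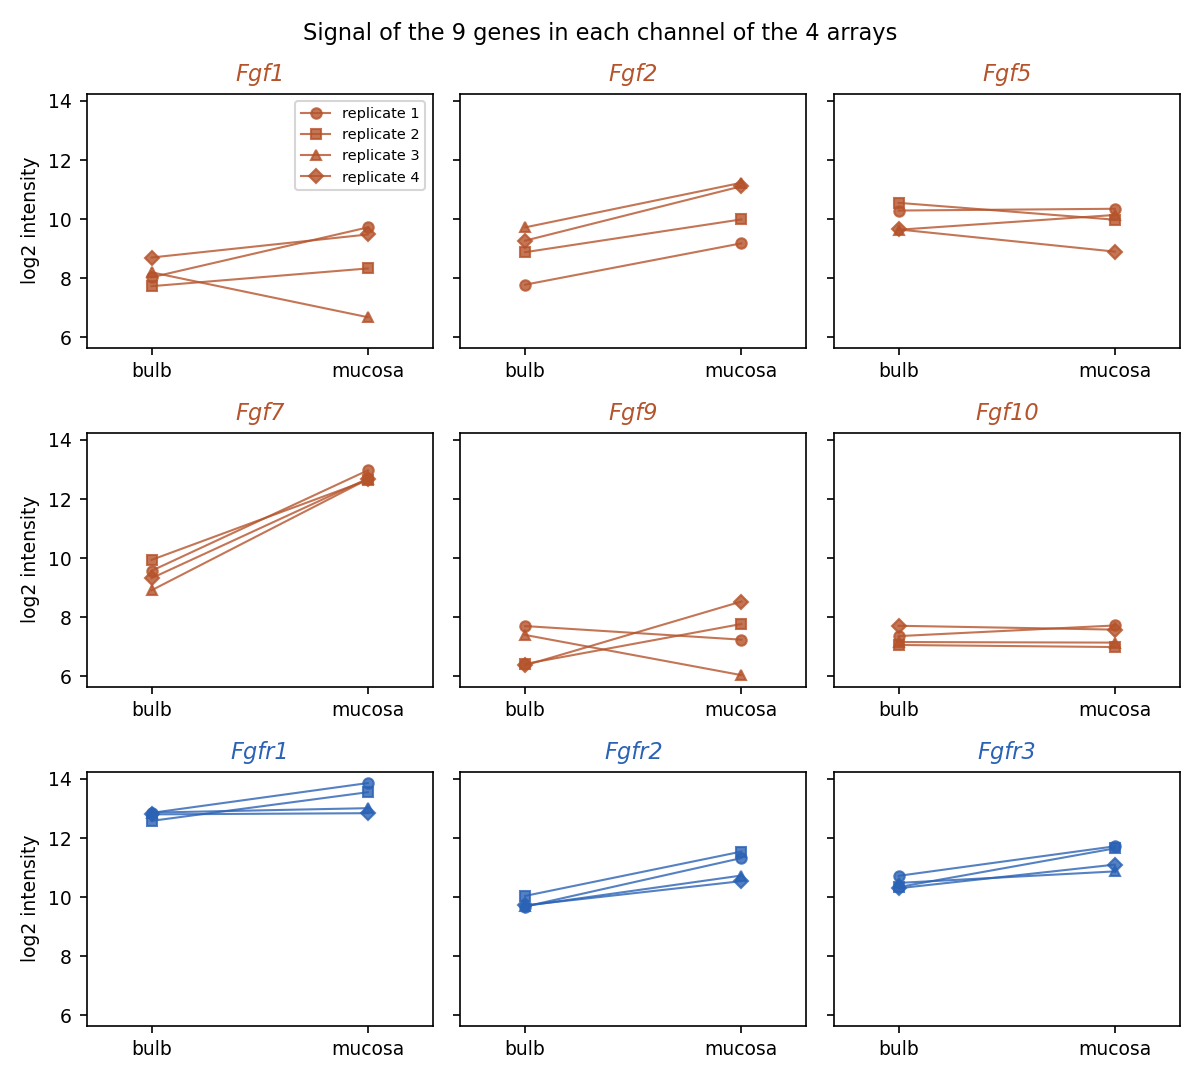
Log2 intensity of the probe that stands for each of the 9 genes, in the bulb (Cy3) and mucosa (Cy5) channel of each array, with a line joining the 2 channels of an array. Fgf7 sits between 8.91 and 9.94 in bulb cells and between 12.64 and 12.97 in mucosa cells, with each line rising. The lines of Fgf1, Fgf5, Fgf9 and Fgf10 rise on some arrays and fall on others.

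Fgf2, basic fibroblast growth factor and a mitogen for many glia, gave different ratios at its 2 probes. The brighter probe, which stands for the gene, lies at chr2:123947600-123947659 and had log2 ratios of 1.40, 1.11, 1.51 and 1.84. All 4 were above 0, with a mean of 1.46 ± 0.30 (SD, n = 4), or 2.76-fold higher in mucosa cells (adjusted p = 0.0164). Its signals in the 2 channels overlapped across arrays, from 9.18 to 11.23 in mucosa and from 7.78 to 9.72 in bulb cells, so the difference shows within arrays. In a fit of the channels as unpaired samples it was not called (adjusted p = 0.123). Nor was it called with any 1 array left out (adjusted p from 0.0543 to 0.0699).

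The second Fgf2 probe lies 655 bases upstream on the same strand, at chr2:123946945-123947004, has the same GC content of 45%, and was printed as 10 spots on each array. Its log2 ratios were 0.11, -0.77, 0.20 and -0.88, on both sides of 0. The mean was -0.34 ± 0.57 (SD, n = 4), which did not pass over all tested probes (adjusted p = 0.497). The spots of an array differed little, with an SD from 0.06 to 0.13 over the 8 to 10 spots used, so the spread between arrays was several times that between spots. The probe was dim, at the 16.9th percentile of mean intensity among tested probes against 55.8 for the other, though well above background in both channels of all 4 arrays. On each array the brighter probe had the higher ratio, by 1.80 ± 0.67 (SD, n = 4) on the log2 scale, and the mean over both probes was 0.56 (adjusted p = 0.174). The call for Fgf2 therefore rests on 1 of its 2 probes.

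**Figure D2:**
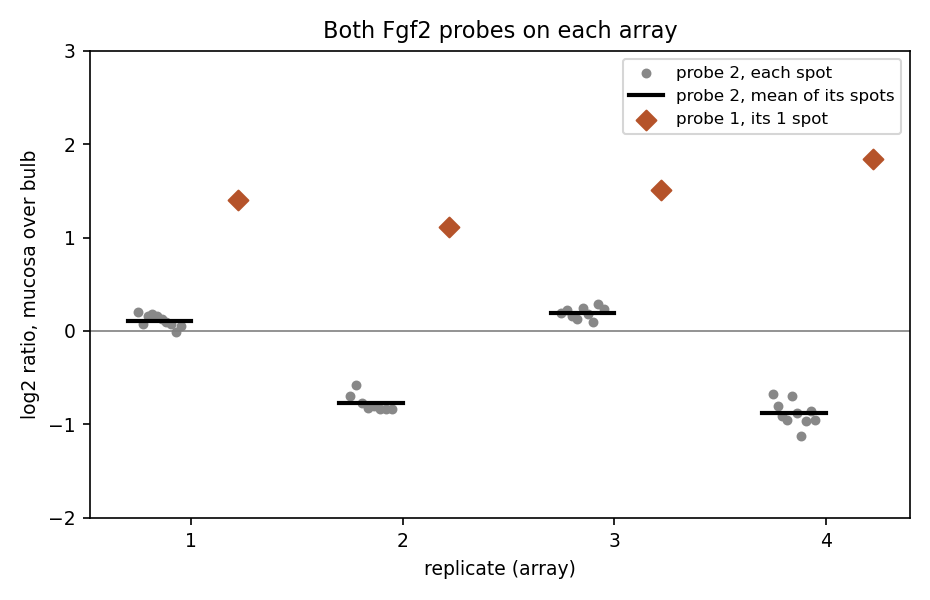
Log2 ratio of mucosa over bulb at the 2 Fgf2 probes on each of the 4 arrays. Grey points are the spots of the probe printed 10 times and black bars their means, from -0.88 to 0.20; diamonds are the single spot of the brighter probe, from 1.11 to 1.84.

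Of the other 4 ligands none was called in either direction. Fgf1, acidic fibroblast growth factor, had log2 ratios of 1.69, 0.61, -1.52 and 0.77, with replicate 3 low and the others above 0. Its mean was 0.39 ± 1.36 (SD, n = 4; adjusted p = 0.674), and -0.05 without replicate 1. Fgf9, first known as a glia-activating factor, had -0.46, 1.35, -1.37 and 2.16, so 2 arrays lay on either side of 0. Its mean was 0.42 ± 1.62 (adjusted p = 0.699), and -0.16 without replicate 4. The Fgf9 probe was well above background on 3 mucosa and 2 bulb arrays, and so passed the filter through the mucosa channel alone. The Fgf1 probe was well above background on 3 mucosa and 4 bulb arrays.

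Fgf5, known as a regulator of the hair cycle, had log2 ratios of 0.06, -0.57, 0.50 and -0.75, again on both sides of 0. Its mean was -0.19 ± 0.58 (SD, n = 4; adjusted p = 0.709), with a 95% interval from -0.85 to 0.48, and it turned to 0.01 under median centring. Fgf10 had 0.36, -0.07, -0.02 and -0.13. Its mean of 0.03 ± 0.22 (SD, n = 4; adjusted p = 0.933) had a 95% interval from -0.46 to 0.53, the narrowest of the 9 genes. The sign of Fgf10 has no meaning at this precision, being -0.12 under median centring and -0.07 without replicate 1. For Fgf1 and Fgf9 the intervals were wide, from -0.83 to 1.60 and from -1.0 to 1.84, so for neither gene is an increase of more than 2-fold shown to be absent.

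All 5 receptor probes had ratios above 0 on every array, and 1 receptor gene, Fgfr2, was called higher in mucosa cells. It was measured by 2 probes. The brighter probe, at chr1:189483073-189483132, had log2 ratios of 1.64, 1.50, 1.03 and 0.81, all above 0, with replicates 3 and 4 lowest. Its mean was 1.25 ± 0.39 (SD, n = 4), or 2.37-fold (adjusted p = 0.0319). Its signals did not overlap, from 10.54 to 11.54 in mucosa and from 9.68 to 10.04 in bulb cells. The call was lost with each array left out in turn (adjusted p from 0.0587 to 0.137). It was also lost with the scanner software's processed signals (adjusted p = 0.056), the deposited log ratio (0.0509), a trended and robust variance (0.0623) and no moderation of the variance (0.129).

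The dimmer Fgfr2 probe had the larger ratios, 2.26, 2.75, 2.84 and 1.97, all above the highest value of the other probe. The mean was 2.45 ± 0.41 (SD, n = 4), or 5.48-fold (adjusted p = 0.00472 over all tested probes), and it was called with each array left out in turn (adjusted p from 0.0181 to 0.0364). Its signals lay between 10.48 and 11.34 in mucosa and between 8.20 and 9.08 in bulb cells. Within arrays the brighter probe had the lower ratio by -1.21 ± 0.49 (SD, n = 4), on 4 of 4 arrays. Fgfr2 makes splice forms that differ in their ligand-binding part; which of them each probe reads was not analysed here.

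Fgfr1, a receptor found widely in mesenchyme and glia, was higher on each array without passing the threshold. The brighter probe had log2 ratios of 1.02, 0.97, 0.15 and 0.04, so replicates 1 and 2 stood about 1 unit above 0 and replicates 3 and 4 near 0. Its mean was 0.54 ± 0.52 (SD, n = 4; adjusted p = 0.268), at a signal in the 95.3rd percentile of tested probes. The second probe, 10.1 kb away at chr16:70880267-70880326, had 1.88, 1.18, 0.42 and 1.12. Its mean was 1.15 ± 0.60 (adjusted p = 0.0672 over all tested probes), 2.22-fold, with signals that did not overlap between channels. It was called under median centring (adjusted p = 0.0383), with array weights (0.0432) and with unpaired channels (0.0319). In the other 16 of the 19 settings that gave this probe a value it was not called. Among these were the fits with each array left out in turn (adjusted p from 0.0651 to 0.201).

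Fgfr3, a receptor known from cartilage growth and from astrocyte precursors, had log2 ratios of 1.00, 1.32, 0.39 and 0.79. All were above 0 and the signals did not overlap, from 10.87 to 11.72 in mucosa and from 10.30 to 10.72 in bulb cells. The mean of 0.88 ± 0.39 (SD, n = 4), or 1.83-fold, did not pass (adjusted p = 0.0824). Median centring gave 1.11 (adjusted p = 0.0375), array weights 0.99 (0.0495) and unpaired channels 0.88 (0.0458), each past the threshold. In the other 17 of 20 settings Fgfr3 was not called, among them each array left out in turn (adjusted p from 0.103 to 0.274).

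**Figure D3:**
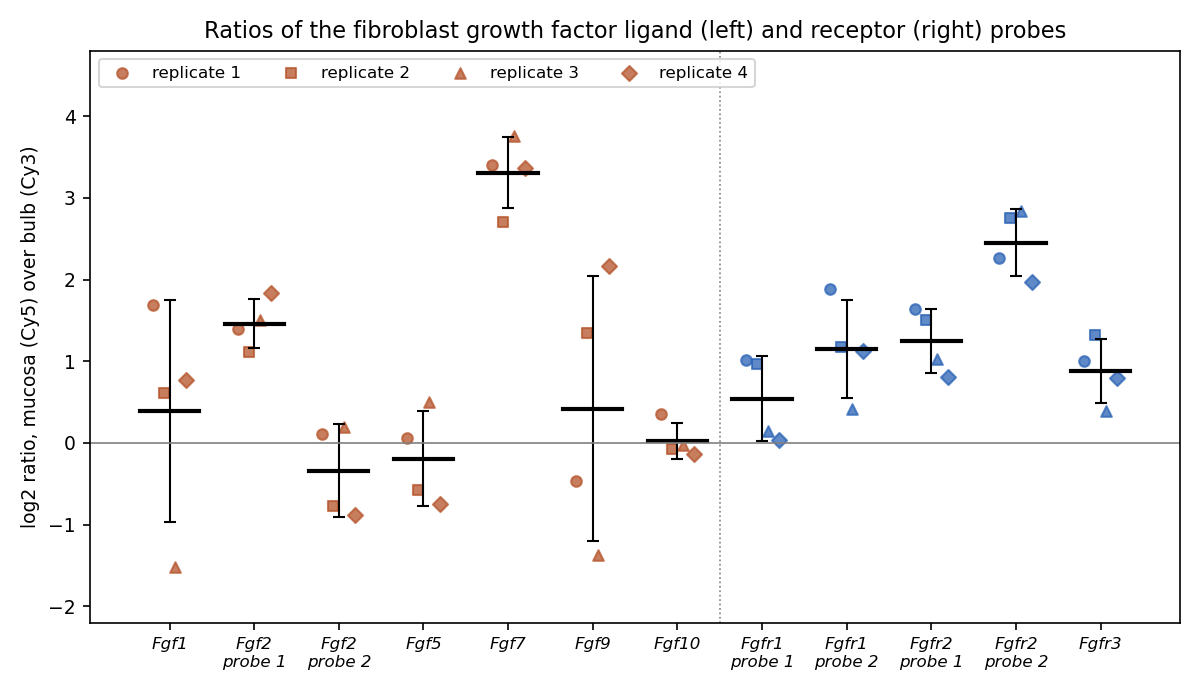
Log2 ratio of mucosa over bulb at the 12 probes of the 9 genes. Each symbol is 1 array, bars are means with SD over 4 arrays, and for genes with 2 probes the brighter is probe 1. The 5 receptor probes are above 0 on every array, while the ligand probes run from -1.52 to 3.76.

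Set side by side, the ligands were heterogeneous and the receptors alike in sign at the probes that carry their names. A probe described as rat Fgfr3, but outside the naming rule, was at -1.50 on replicate 4. Of 6 ligands, 2 were called higher in mucosa cells (Fgf7 and Fgf2) and 0 lower, and of 3 receptors 1 was called higher (Fgfr2) and 0 lower, by limma with Benjamini-Hochberg adjustment over all gene names. Of all names, 3.23% were called higher and 3.38% lower (6.62% in either direction). The members were chosen with earlier results of these data known, so the shares given here are no test of them. At an unadjusted p under 0.05, 2 ligands and 2 receptors were higher and 0 were lower, where 11.1% of all names were higher and 12.6% lower. In the 20 alternative settings, which reuse the same 4 arrays, 0 members were called lower, where 32 to 1743 of all names were. A count of 0 of 9 members is near the 3.38% of all names called lower, and was not tested. Of the 12 probes, 4 were called higher, where 3.13% of all tested probes were (6.54% in either direction). The log2 ratio was above 0 on all 4 arrays for 5 of 5 receptor probes and 2 of 7 ligand probes, against 17.2% of all tested probes. By gene name it was 3 of 3 receptors and 2 of 6 ligands, against 17.8% of all names, and 0 members were below 0 on all 4 arrays, against 15.7%. In single values this was 20 of 20 for receptors and 18 of 28 for ligands; the values of 1 array and the probes of 1 gene are not independent.

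The median log2 ratio was 0.41 over the ligands (from -0.19 to 3.31) and 0.88 over the receptors (from 0.54 to 1.25), beside 0.012 over all tested names. Channel signals did not overlap, with mucosa higher, for 1 of 6 ligands and 2 of 3 receptors, where 11.4% of all names did so, and 0 members did so with bulb higher, where 9.37% did. The means over the 2 classes did not separate them: the receptor mean minus the ligand mean was 0.14, 0.41, 0.05 and -0.66 on the 4 arrays. Fgf7 had the highest ratio of the ligands on every array.

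**Figure D4:**
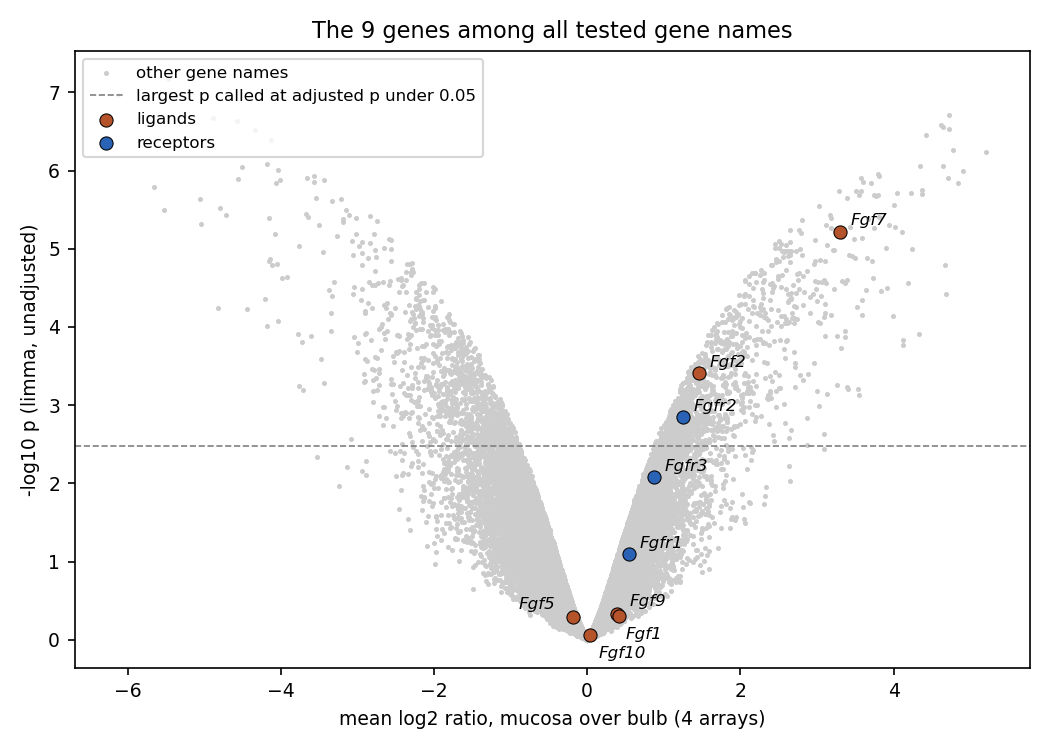
Mean log2 ratio of mucosa over bulb against -log10 of the unadjusted limma p for all 31897 tested gene names, with ligands and receptors in colour. Fgf7 (3.31), Fgf2 (1.46) and Fgfr2 (1.25) lie above the dashed line of called names, and Fgf1, Fgf5, Fgf9 and Fgf10 near the bottom.

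A few further probes lie outside the naming rule but are described in the files as parts of these genes or of close relatives; they were looked up after the members' values were known. A transcript cluster described as similar to mouse acidic fibroblast growth factor had log2 ratios of 2.27, 1.83, 2.11 and 0.81, all above 0. Its mean of 1.75 ± 0.66 (SD, n = 4; adjusted p = 0.0238 over all tested probes) contrasts with the 0.39 ± 1.36 of the probe named Fgf1, which had replicate 3 at -1.52. A probe for an alternatively spliced Fgfr1 sequence had 1.24 ± 0.56 (adjusted p = 0.0504) and an Fgfr1-like predicted gene 0.48 ± 0.52 (adjusted p = 0.319). The latter had 0.91, 0.91, 0.25 and -0.14, so unlike the 5 probes named for receptors it was below 0 on replicate 4. For Fgfr3, a probe described by a human fragment had 0.56 ± 0.26 (adjusted p = 0.180). Another, described as a rat Fgfr3 transcript itself, had log2 ratios of 2.56, 0.83, 2.40 and -1.50, so it too was below 0 on replicate 4. Its mean was 1.07 ± 1.89 (SD, n = 4; adjusted p = 0.385 over all tested probes).

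The genes most like each called member were found by the Euclidean distance between log2 ratios over the 4 arrays, among 8837 names with a known symbol. For Fgf7 the nearest was Ltbp2, a latent TGF-beta binding protein of elastic microfibrils, at a distance of 0.37, with 3.53, 2.76, 3.74 and 3.70. Adarb1, an RNA-editing adenosine deaminase, and Rgs9, a regulator of G protein signalling, followed at 0.91 and 0.96. For Fgf2 the nearest was the ligand gene Bmp4 at 0.16, with a mean log2 ratio of 1.44 (adjusted p = 0.0164), and RGD1559747 lay at 0.39. For Fgfr2 the nearest was Pdgfrb, the PDGF receptor of mesenchymal and mural cells, at 0.29 with 1.91, 1.47, 0.96 and 0.85, then Vamp1 at 0.29 and Fhl2 at 0.32. These distances rest on 4 arrays and on the probe that stands for each gene.

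Of the other genes of the pathway, 79 of 91 listed ones were tested, and 5 were higher and 7 lower in mucosa cells, or 15.2%, where 6.62% of all names were called. This list, too, was chosen with earlier results of these data known. Among the other Fgf genes, drawn as other ligands, 2 of 14 were higher and 0 lower (4 and 0 at an unadjusted p under 0.05, where 11.1% of all names were higher and 12.6% lower). The group was taken by name, Fgf11, Fgf12 and Fgf14 included, without asking whether each is secreted or binds these receptors. Fgf18, a ligand known from bone and cartilage growth, had log2 ratios of 3.59, 2.73, 2.73 and 2.44, all high. Its mean was 2.87 ± 0.50 (SD, n = 4), or 7.33-fold (adjusted p = 0.00387), and it was called with each array left out (adjusted p from 0.0155 to 0.0286). Fgf15, a ligand of endocrine type, was higher at 1.00 ± 0.26 (adjusted p = 0.0439), a call lost without each array in turn (adjusted p from 0.102 to 0.162). Fgf8, a patterning ligand of the early face and brain, had 0.07 ± 1.64. The probes of Fgf13 and Fgf20 did not pass the filter on dim signals.

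Among other receptors, co-receptors and carriers, 2 of 14 were higher and 2 lower, where 3.23% of all names were higher and 3.38% lower. The cell-surface heparan sulfate proteoglycans went both ways. Glypican 3 (Gpc3) was lower at -2.80 ± 1.20 (SD, n = 4; adjusted p = 0.0209), with -1.83 ± 0.45 at a second probe, and syndecan 3 (Sdc3), the syndecan of neural tissue, was lower at -1.93 ± 0.45 (adjusted p = 0.0100). Glypican 4 (Gpc4) was higher at 1.45 ± 0.57 (adjusted p = 0.0326). The fourth call, syndecan 4 (Sdc4), was named after its value was seen and was higher at 1.38 ± 0.27 (adjusted p = 0.0182). Fgfr4 had 0.40 ± 0.20 (adjusted p = 0.292), and Fgfrl1, a receptor relative without a kinase, 0.35 ± 0.03 (adjusted p = 0.321), both above 0 on all 4 arrays. The Gpc4 call was lost without each array in turn, Gpc3 without replicate 2, 3 or 4, Sdc4 without replicate 1, 2 or 3, and Sdc3 without replicate 1 or 2.

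Among enzymes that build or trim heparan sulfate, 1 of 10 was higher and 1 lower, where 3.23% of all names were higher and 3.38% lower. Sulf1, which removes sulfate groups from the chains outside the cell, had log2 ratios of 2.91, 2.20, 1.30 and 2.18, all above 1. Its mean was 2.15 ± 0.66 (SD, n = 4), or 4.43-fold (adjusted p = 0.0133), a call lost without replicate 1, 2 or 4. Its relative Sulf2 had -0.45 ± 0.56 (adjusted p = 0.358). Hs2st1, which adds a sulfate group to the chains, was lower at -1.11 ± 0.25 (adjusted p = 0.0323), a call lost without each array in turn.

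The called genes that act inside the cell all had lower ratios in mucosa cells. Of 22 relay genes 0 were higher and 3 lower, or 13.6% called, where 3.38% of all names were lower and 6.62% called. At an unadjusted p under 0.05, 1 was higher and 6 were lower, where 11.1% and 12.6% of all names were. The kinase genes Map2k1 and Mapk3 had -1.15 ± 0.42 (SD, n = 4; adjusted p = 0.0427) and -1.08 ± 0.31 (adjusted p = 0.0394), and the docking protein gene Gab1 had -1.04 ± 0.34 (adjusted p = 0.0472). Each of these 3 calls was lost without each array in turn and under median centring. Of 10 feedback inhibitors 0 were higher and 1 lower (0 and 4 at the same unadjusted threshold). This was Spred3 (RGD1311713 on the array), an inhibitor of the Ras cascade, at -1.15 ± 0.17 (adjusted p = 0.0250), a call also lost without each array in turn.

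None of 9 genes known as transcriptional targets of the pathway was called by limma (2 higher and 1 lower at an unadjusted p under 0.05, where 11.1% of all names were higher and 12.6% lower). The largest mean was that of Myc, at -1.46 ± 1.21 (SD, n = 4; adjusted p = 0.123), and Etv4 and Etv5, the ETS factors often used as readouts of the pathway, had 0.83 ± 0.70 (adjusted p = 0.171) and 0.70 ± 0.61 (adjusted p = 0.201). Group medians were 0.11 for other Fgf genes, 0.30 for receptors and carriers, -0.30 for heparan sulfate enzymes, -0.27 for relay genes, -0.40 for feedback inhibitors and 0.28 for targets, beside 0.012 over all names.

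**Figure D5:**
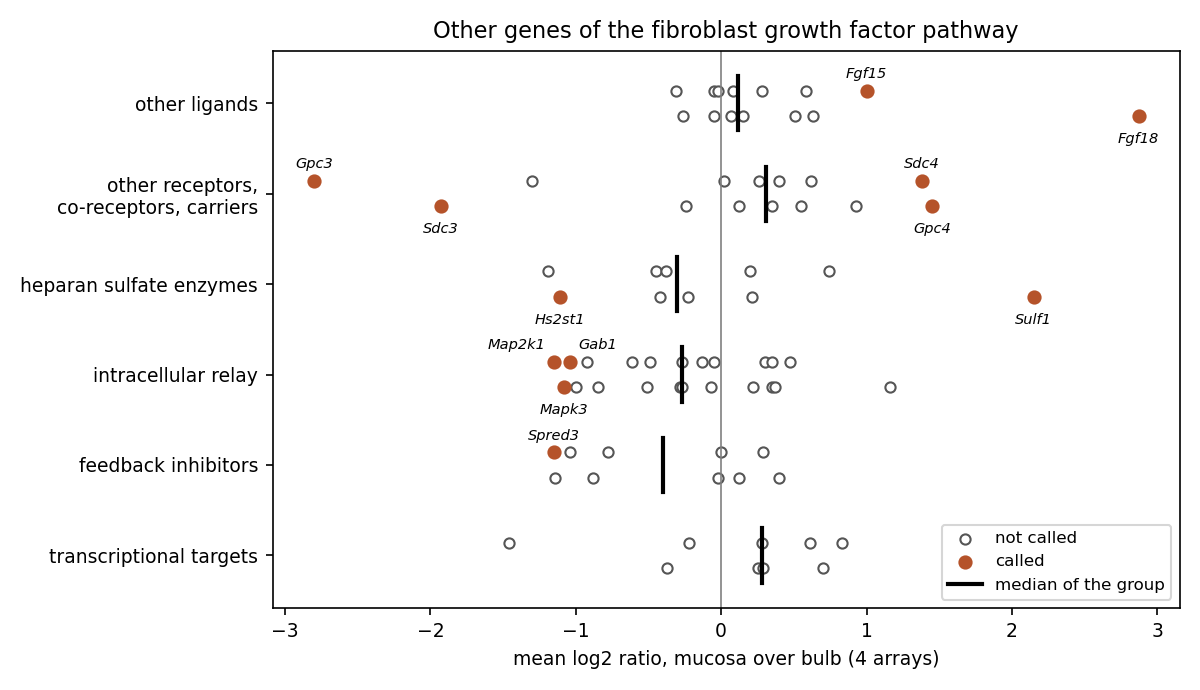
Mean log2 ratio of mucosa over bulb over 4 arrays for 79 other pathway genes in 6 groups; filled points passed limma's adjusted threshold of 0.05 and black bars are group medians. Fgf18 (2.87) and Gpc3 (-2.80) are the outermost points, and the called genes of the intracellular groups lie to the left of 0.

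Markers of several cell types differed between the channels alongside these genes. Defining genes of ensheathing glia (Ngfr, S100b, Sox10 and Fabp7) were well above background in both channels of all 4 arrays. So were markers of other cell types, such as Omp and Snap25 of neurons and Mog of oligodendrocytes, so this flag does not identify the cells. Of 18 glia markers 1 was higher (Gldn, 1.87) and 8 lower in mucosa cells, Ngfr, S100b, Sox10 and Fabp7 among the latter. Of all names, 3.23% were called higher and 3.38% lower, the shares against which each marker count here is to be read. Of 17 fibroblast markers 6 were higher, among them the collagen genes Col1a1 and Col1a2, and 2 were lower (Dcn and Fbln1). Of 9 smooth muscle and pericyte markers 5 were higher, including Pdgfrb, the nearest pattern to Fgfr2, and 1 was lower (Mcam). The calls of Ngfr, Pdgfrb and Mcam were lost without each array in turn. Sox10 was lost without replicate 1, 2 or 4, Dcn without replicate 2, 3 or 4, and S100b and Gldn without replicate 1 or 2. Fabp7, Col1a1, Col1a2 and Fbln1 were called with each array left out. The summed signal of the glia markers lay between 41244 and 56719 in mucosa and between 77668 and 98154 in bulb cells, and that of the fibroblast markers between 350550 and 380712 and between 139663 and 203907. Epithelial markers had 1 higher (Krt8, 2.64) and 1 lower (Cdh1, -2.40) of 8, with sums from 10070 to 18123 in mucosa and from 4402 to 5788 in bulb cells. A sum gives most weight to the brightest probes of its list and is given for these lists only. The median log2 ratio was -1.15 over the glia, 0.74 over the fibroblast and 0.30 over the epithelial markers. Astrocyte, oligodendrocyte and neuron markers had 0, 1 and 0 higher and 3 lower each of 10, 10 and 11. Some lists share genes, so these counts are not separate. S100b counts as lower among both glia and astrocyte markers, and Cspg4 as higher among both pericyte and oligodendrocyte markers. Of the lower oligodendrocyte markers, Ugt8 passed the filter on dim signals only through the bulb channel, being well above background on 2 mucosa and 4 bulb arrays. Macrophage markers had 0 higher and 1 lower of 9, and endothelial ones 1 higher and 1 lower of 7. The macrophage call, Cd163, had a log2 ratio of -1.58 at the brighter probe and 0.16 at a second probe (adjusted p = 0.674 over all tested probes), and it was lost without replicate 1, 2 or 3. The endothelial calls, Cdh5 and Tek, were lost without each array in turn, and the second Cdh5 probe was not called (adjusted p = 0.154). No tested marker could be below background on every array, because the filter on dim signals left such probes out. The part of these marker differences in the ratios of ligands and receptors was not tested. The median spot signal was 524 to 789 in Cy5 and 319 to 357 in Cy3, and 82.8% to 91.1% of spots in Cy5 and 88.4% to 89.5% in Cy3 were well above background.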

How the data were processed

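Messenger RNA of cultured cells was measured on 4 Agilent rat arrays of 45018 features, on 1 slide with 1 scan time. Per the file headers, Feature Extraction 10.5.1.1 produced the scanner files; version 9.1 is the one given per the submitters' processing notes. The intensity columns, deposited on a linear scale, hold spot signal and local background and are not normalized. The deposited ratio is the log10 of processed Cy5 over Cy3 intensity, background-subtracted and dye-normalized per the file headers. The deposited value table holds the same log10 values at all features.

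Background was removed with normexp (offset 50), and loess was applied inside each array, using limma 3.58.1 (R 4.3.3). Control and outlier spots had weight 0, and repeated spots were averaged. Tested probes were those flagged well above background, for a share of spots of 0.5 or more, on 3 or more arrays of either channel; 4263 probes were removed. The brightest tested probe stood for a gene name. The within-array log2 ratio was tested against 0 with lmFit and eBayes (6.36 degrees of freedom, Benjamini-Hochberg adjustment, threshold 0.05) over all names, and separately over all probes. The design text calls the samples paired. Signals of the 2 channels of an array did not deviate together, with correlations across probes between -0.06 and 0.02, and ratios of 2 arrays correlated between 0.35 and 0.54 across names. The labels call the arrays biological replicates without saying what was replicated, so p-values measure the spread between these 4 pairs. Channel signals are log2 values after loess and Aquantile normalization. With 4 arrays, their number limits precision.

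Of 196 list entries, 165 were matched by array name, 10 by accession and 3 by synonym, through RefSeq gene names (GRCr8, whose coordinates were not used), and 18 had no tested match. The members and lists were chosen with earlier results of these data known. Named genes were the 9 members, up to 3 called genes per pathway group (or the largest where 0 were called) and the 3 nearest patterns per called member, of which 1 is not reported here; Fgf8, Fgfr4, Fgfrl1, Sdc4, Sulf2, Etv4, Etv5 and the cell type markers were named after their values were seen. The fit was tested on simulated ratios. Figures were drawn with matplotlib 3.10.9 under Python 3.11.15.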

Additional observations from a re-analysis of the deposited data

How the results depend on the processing

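Over 20 alternative settings, 154 of 178 values of the 9 genes kept their direction and their side of the threshold, 16 lost a call, 3 gained one and 5 changed sign, the last all far from the threshold: Fgf5 (0.01) and Fgf10 (-0.12) under median centring, and with 1 array left out Fgf1 (-0.05 without replicate 1, to 1.02 without replicate 3), Fgf10 (-0.07 without replicate 1, to 0.09 without replicate 4) and Fgf9 (-0.16 without replicate 4, to 1.01 without replicate 3). Fgf7 was called in all but the fit without moderation of the variance, where only 40 higher and 32 lower names remained in all (1031 and 1079 in the report), with 0 ligands, 0 receptors, 0 of 12 member probes and 0 and 0 other pathway genes called. With 1 array left out, which leaves 3 pairs, calls fell to 282 to 540 higher and 263 to 525 lower names, 1 ligand (from 2), 0 receptors (from 1), 2 member probes (from 4), 1 to 2 higher and 0 to 1 lower pathway genes. A trended robust variance gave 568 and 329 names, 0 receptors, and 3 higher and 2 lower pathway genes (5 and 7 in the report). Processed signals and the deposited log ratio gave 708 and 696 lower names, and each 0 receptors with 3 higher and 2 lower pathway genes. Median centring gave 2 receptors and 3 lower pathway genes, array weights 2 receptors, and an offset of 16 gave 4 lower pathway genes. The mean over probes left 1 ligand, as Fgf2 fell to 0.56. Without the replicate block, that is with channels as unpaired samples, 1735 names were higher and 1743 lower, with 1 ligand and 2 receptors; Fgf7 and Fgfr2 kept their calls and Fgf2 did not. The strict filter left out Fgf1 and Fgf9, which had too few arrays well above background. The cause of the other changes was not tested. No setting moved the median of all names by over 0.1.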
